A study of Homo sapiens with 10 samples.

Results

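The 10 genes described here encode negative feedback regulators of the ERK (extracellular signal-regulated kinase) branch of MAPK signalling, together with 2 transcription factors that are used with them as a readout of that branch. They are the MAPK phosphatases DUSP1, DUSP4, DUSP5 and DUSP6, the Sprouty proteins SPRY2 and SPRY4, the Spred proteins SPRED1 and SPRED2, and the PEA3 family factors ETV4 and ETV5. They were chosen by gene symbol, with earlier results of these data known, and make up 10 of the 52402 gene symbols in the count files. All 10 were among the 14884 genes with enough reads to be tested, and each had 1 row in the files.

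In this pathway, growth factor receptors activate RAS, and RAS starts the kinase chain RAF, MEK and ERK. Active ERK switches on genes whose products then limit the pathway: the DUSP enzymes remove the activating phosphates from MAP kinases, the Sprouty proteins act between the receptor and RAF, and the Spred proteins bring neurofibromin, which turns RAS off, to the membrane. ETV4 and ETV5 are ETS transcription factors induced by FGF and ERK signals, and in the developing lung FGF signalling, Sprouty proteins and ETV4/ETV5 take part in airway branching. Only mRNA was measured here, so the activity of ERK itself was not analysed.

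The cells were BEAS2B, an immortalized line derived from normal human bronchial epithelium, all WT and all transfected with Lipofectamine 2000. The control group (miRcontrol) received a scrambled miRNA control. The other groups received a mimic of miR-3124-5p (miR3124_mimic), a mimic of miR-200b-3p (miR200b_mimic), an inhibitor of miR-92b (miR92b_inhibitor) or the 3 agents together (mixed). The stated final concentration was 50 nM and RNA was taken after 48 h. The amount of each agent in the mixed group and the arm of miR-92b that the inhibitor binds are not given in the sources used here. A mimic adds a synthetic miRNA well above a cell's own level, and all cells are of 1 line, so the groups model an added or blocked miRNA and not a tissue.

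Each group had 2 libraries of poly(A)-selected mRNA with 13587666 to 18503890 gene counts each. The labels do not say whether the 2 libraries of a group came from separate cultures, so the p-values below measure only the spread between these libraries, which may be technical. All pairs differed by more than counting error (chi-square per degree of freedom from 1.75 to 2.63). Levels are CPM, that is, counts divided by the normalized size of each library, and the members were backed by 271 to 6716 reads per library. Changes are log2 fold changes with their standard error (SE) from one edgeR quasi-likelihood fit of all 10 libraries. A gene is said to have risen or fallen where the Benjamini-Hochberg adjusted p over the 14884 genes was under 0.05. The count by the criterion of the study, a change of at least 2-fold with an unadjusted p under 0.05, is given beside it. The 4 comparisons with miRcontrol share the same 2 control libraries.

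The miRNAs are shown first because their seed, bases 2 to 8, decides which 3′UTR words they can pair with. The mature sequences are from RefSeq (GRCh38.p14), 5′ to 3′, with the seed in capitals, and the 4 seeds differ from each other.
hsa-miR-3124-5p: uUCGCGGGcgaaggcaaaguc
hsa-miR-200b-3p: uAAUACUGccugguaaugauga
hsa-miR-92b-3p: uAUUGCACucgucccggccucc
hsa-miR-92b-5p: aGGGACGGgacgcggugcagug
They lie on the plus strand of chromosome 1, miR-3124-5p at chr1:248826383-248826403, miR-200b-3p at chr1:1167160-1167181, miR-92b-3p at chr1:155195237-155195258 and miR-92b-5p at chr1:155195196-155195217. The complement of each seed was searched as a word of 7 bases on the transcript's own strand, in the 3′UTRs of 19120 genes (that of the coding transcript with the greatest length, GENCODE v29, GRCh38). The word for miR-3124-5p, CCCGCGA, was in 0.62% of these 3′UTRs and in 0 of the 10 members. The word for miR-200b-3p, CAGTATT, was in 15.97% of them and in 3 members, DUSP1, DUSP4 and ETV5. The word for miR-92b-3p, GTGCAAT, was in 10.85% and in 2 members, DUSP5 and SPRED1, and that for miR-92b-5p, CCGTCCC, was in 3.75% and in 1 member, SPRED1. DUSP6, SPRY2, SPRY4, SPRED2 and ETV4 held none of the 4 words. The 3′UTRs of the members were 672 to 5585 bases long, where the median of all genes was 1036, and the shares above are not adjusted for length. A match is a description of the letters and not of pairing in the cell.

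A matched stretch of 4 of these members is shown here with the word in capitals, so that it can be set beside the changes below.
DUSP5, miR-92b-3p word: tggacatttcatacctGTGCAATactga
SPRED1, miR-92b-5p word: tgctgctaagattttgCCGTCCCattcc
DUSP1, miR-200b-3p word: tgcttgacatacctacCAGTATTattcc
ETV5, miR-200b-3p word: cgattaacacttttgaCAGTATTttgtt
The DUSP5 word lies at chr10:110510505-110510511 on the plus strand, 79 bases past the stop codon. The SPRED1 word shown lies at chr15:38353984-38353990 on the plus strand, that of DUSP1 at chr5:172768429-172768435 and that of ETV5 at chr3:186047907-186047913, both on the minus strand. Of the members with the miR-200b-3p word, DUSP1 and DUSP4 rose in the miR200b_mimic group and ETV5 was not called. Both members with the miR-92b-3p word, DUSP5 and SPRED1, rose in the miR92b_inhibitor group, as did 4 members without it.

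Against miRcontrol, 8 of the 10 genes rose and 0 fell in the miR3124_mimic group, where 25.7% of all genes tested rose and 25.3% fell. In the miR200b_mimic group 8 rose and 0 fell, against 21.4% and 19.1% of all genes. In the miR92b_inhibitor group 6 rose and 1, ETV5, fell, against 17.5% and 18.2%. In the mixed group 8 rose and 0 fell, against 21.5% and 21.1%. The median log2 fold change of the members was 0.67, 0.45, 0.31 and 0.46 in these groups, while that of all genes lay between -0.01 and 0.00. At an unadjusted p under 0.05, edgeR likewise had 0 members lower in the groups with 0 that fell, and so did DESeq2 at an adjusted p under 0.05. DUSP5, DUSP6, SPRY4 and ETV4 rose in all 4 groups. The share of all genes that did so was not computed, and the 4 comparisons are not independent, since they share the control libraries.

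By the 2-fold criterion, 2 members passed in the miR3124_mimic group (DUSP6 and ETV4), where 8.81% of all genes passed in either direction. The same number passed in the miR200b_mimic group (DUSP5 and DUSP6), with 5.70% of all genes. None of the 10 passed in the miR92b_inhibitor group, with 2.63% of all genes, although 7 of them passed the adjusted p of edgeR there. In the mixed group 4 passed (DUSP5, DUSP6, SPRY4 and ETV4), with 5.42% of all genes. SPRY4 in the mixed group, at 2.01-fold, lay just inside the limit of 2-fold. DUSP5 in the miR3124_mimic group, at 1.99-fold, and SPRY4 in the miR200b_mimic group, at 1.96-fold, lay just outside.

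**Figure D1:**
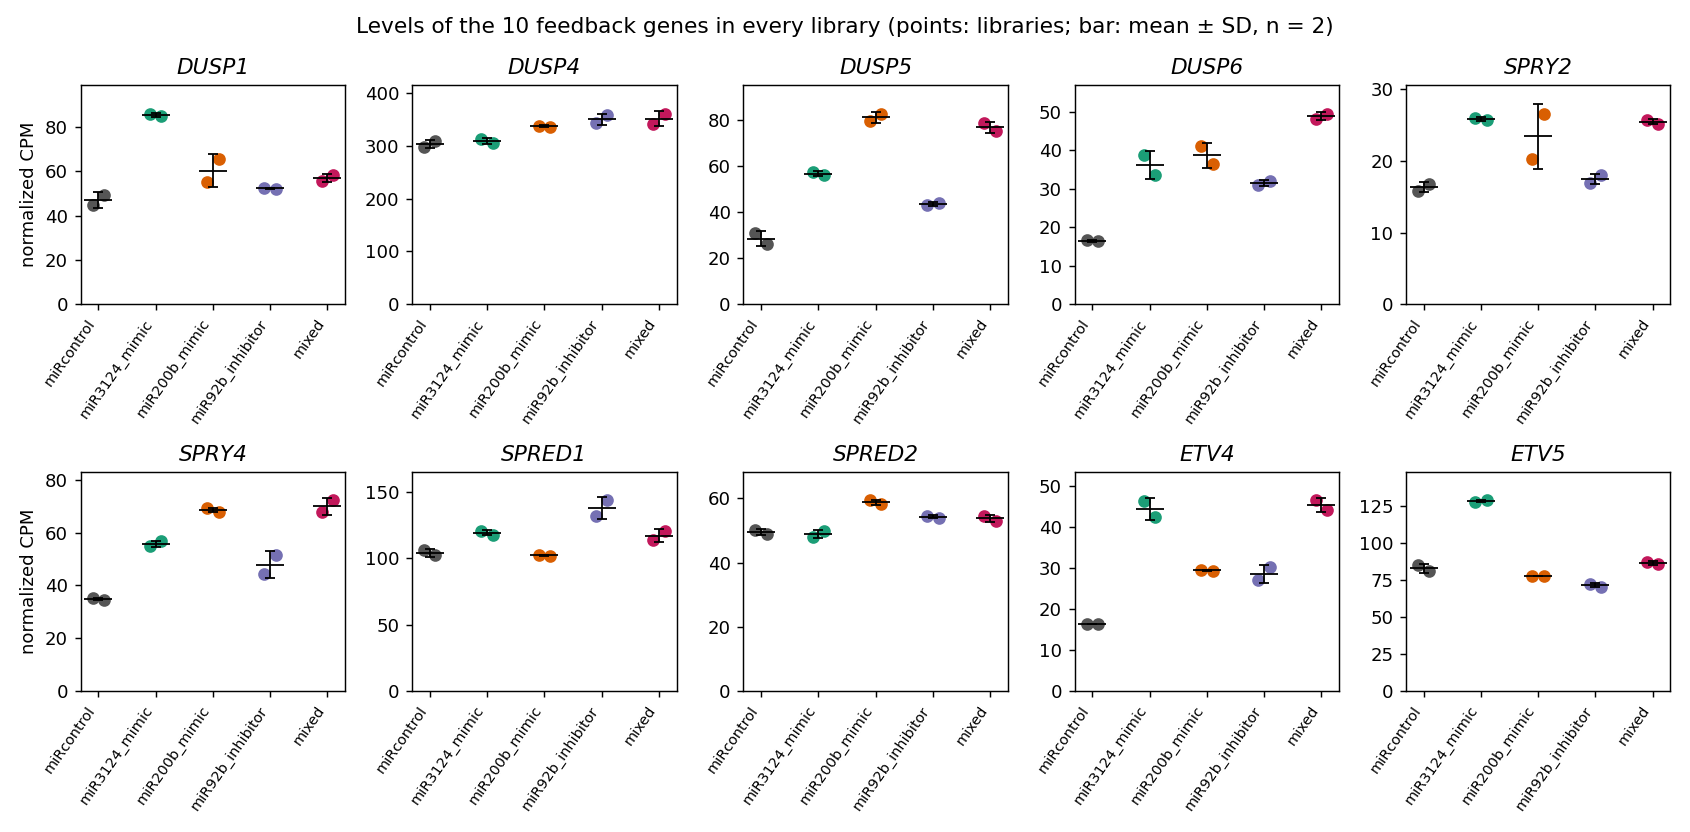
Normalized CPM (vertical axis, from 0) of the 10 genes in the 5 groups; each point is a library and the black bars are the mean ± SD of 2 libraries. DUSP5, DUSP6, SPRY4 and ETV4 sit above miRcontrol in every other group, while ETV5 stands up in the miR3124_mimic group, at 128 and 129 CPM.

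DUSP6, the cytoplasmic phosphatase that acts mainly on ERK (chr12:89347232-89353271, minus strand, GRCh38 for this and the positions below), had the widest range of group means, 1.57 on the log2 scale. Its level was 16.7 and 16.4 CPM in the miRcontrol libraries, 38.8 and 33.7 with the miR-3124-5p mimic, 41.1 and 36.4 with the miR-200b-3p mimic, 31.0 and 32.0 with the miR-92b inhibitor, and 48.2 and 49.6 in mixed. Every library of the other 4 groups was above both control libraries, and the mixed libraries were the highest. The log2 fold change against miRcontrol was 1.13 (SE 0.0866, adjusted p = 1.58e-15) with the miR-3124-5p mimic and 1.22 (SE 0.0864, adjusted p = 1.93e-16) with the miR-200b-3p mimic. It was 0.93 (SE 0.0873, adjusted p = 5.23e-12) with the miR-92b inhibitor and 1.57 (SE 0.0815, adjusted p = 2.98e-21) in the mixed group.

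DUSP5, a nuclear phosphatase that acts on ERK (chr10:110497838-110511544, plus strand), followed at a range of 1.52. It was at 30.7 and 26.1 CPM in the control, 57.3 and 55.9 with the miR-3124-5p mimic, 79.4 and 82.7 with the miR-200b-3p mimic, 42.9 and 44.0 with the miR-92b inhibitor, and 78.4 and 75.0 in mixed. No groups overlapped, with the miR-92b inhibitor nearest the control and the miR-200b-3p mimic highest. Its log2 fold change was 1.51 (SE 0.0656, adjusted p = 3.24e-24) in the miR200b_mimic group and 0.99 (SE 0.0687, adjusted p = 4.88e-17) in the miR3124_mimic group. It was 0.61 (SE 0.0706, adjusted p = 1.46e-09) with the inhibitor and 1.43 (SE 0.0648, adjusted p = 1.79e-23) in the mixed group.

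DUSP1, an immediate early phosphatase of the nucleus that acts on p38, JNK and ERK (chr5:172768090-172771195, minus strand), showed another order of groups. Its level was 44.6 and 49.5 CPM in the control and 86.1 and 84.9 with the miR-3124-5p mimic. It was 55.2 and 65.5 with the miR-200b-3p mimic, 52.3 and 52.2 with the miR-92b inhibitor, and 55.7 and 58.1 in mixed. The miR3124_mimic libraries were the highest and the control libraries the lowest, and miR200b_mimic and mixed overlapped. The log2 fold change was 0.86 (SE 0.0627, adjusted p = 2.56e-16) with the miR-3124-5p mimic, 0.37 (SE 0.0662, adjusted p = 8.82e-06) with the miR-200b-3p mimic and 0.28 (SE 0.0651, adjusted p = 0.000464) in the mixed group. Without miR200b_mimic replicate 2, the higher of its 2 libraries, the value in that group was 0.23 (adjusted p = 0.0183). With the inhibitor it was 0.15 (SE 0.0663, adjusted p = 0.0675), and it passed the test there with TMM scaling, with only those 2 groups in the fit, or without miRcontrol replicate 2 (0.23, adjusted p = 0.0322) or miR200b_mimic replicate 1 (0.15, adjusted p = 0.0488). Without miRcontrol replicate 1 it was 0.079, the lowest value with a library left out.

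DUSP4, a nuclear phosphatase of ERK, JNK and p38 encoded on chromosome 8, had the narrowest range of the 10, at 0.21. It was at 299 and 310 CPM in the control, 313 and 305 with the miR-3124-5p mimic, 339 and 336 with the miR-200b-3p mimic, 343 and 358 with the miR-92b inhibitor, and 342 and 361 in mixed. The miR3124_mimic libraries overlapped the controls, and those of the other 3 groups lay above them. The log2 fold change was 0.15 (SE 0.0384, adjusted p = 0.00144) with the miR-200b-3p mimic, 0.21 (SE 0.0379, adjusted p = 2.19e-05) with the inhibitor and 0.21 (SE 0.0379, adjusted p = 9.66e-06) in the mixed group. With the miR-3124-5p mimic it was 0.02 (95% interval -0.05 to 0.10, adjusted p = 0.655).

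SPRY4, a Sprouty inhibitor of receptor tyrosine kinase signalling (chr5:142310427-142326455, minus strand), was at 35.2 and 34.6 CPM in miRcontrol. It was at 54.9 and 56.6 with the miR-3124-5p mimic, 69.2 and 67.9 with the miR-200b-3p mimic, 44.3 and 51.4 with the miR-92b inhibitor, and 67.7 and 72.3 in mixed. All 8 libraries of the other groups were above the controls, and the miR200b_mimic and mixed libraries overlapped at the top. The log2 fold change was 0.68 (SE 0.0676, adjusted p = 6.33e-12), 0.97 (SE 0.0661, adjusted p = 4.72e-17), 0.46 (SE 0.0683, adjusted p = 5.2e-07) and 1.004 (SE 0.0645, adjusted p = 6.63e-18) in these 4 groups.

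SPRY2, of the same family (chr13:80335976-80340951, minus strand), was at 15.9 and 16.8 CPM in miRcontrol. It was at 26.0 and 25.7 with the miR-3124-5p mimic, 20.3 and 26.6 with the miR-200b-3p mimic, 17.0 and 18.01 with the miR-92b inhibitor, and 25.8 and 25.2 in mixed. The 2 miR200b_mimic libraries lay farther apart than those of any other group. The log2 fold change was 0.66 (SE 0.0996, adjusted p = 2.09e-07) with the miR-3124-5p mimic, 0.54 (SE 0.102, adjusted p = 2.19e-05) with the miR-200b-3p mimic and 0.64 (SE 0.098, adjusted p = 4.09e-07) in the mixed group. Without miR200b_mimic replicate 2 the value in that group was 0.31 (adjusted p = 0.0421). With the inhibitor it was 0.10 (95% interval -0.11 to 0.31, adjusted p = 0.501).

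SPRED1, which recruits neurofibromin to restrain RAS (chr15:38252326-38357249, plus strand), was highest in the miR92b_inhibitor group. It was at 106 and 102 CPM in the control, 120 and 118 with the miR-3124-5p mimic, 102 and 102 with the miR-200b-3p mimic, 132 and 144 with the miR-92b inhibitor, and 113 and 120 in mixed. Its log2 fold change was 0.41 (SE 0.0471, adjusted p = 1.67e-09) with the inhibitor and 0.19 (SE 0.0483, adjusted p = 0.000761) with the miR-3124-5p mimic. In the mixed group it was 0.17 (SE 0.0477, adjusted p = 0.00385), and the call was lost without miRcontrol replicate 2 (0.14, adjusted p = 0.0738) or mixed replicate 2 (0.12, adjusted p = 0.113). With the miR-200b-3p mimic it was -0.03 (95% interval -0.13 to 0.07, adjusted p = 0.684). SPRED2, its close relative (chr2:65310851-65432637, minus strand), rose only with the miR-200b-3p mimic, from 50.2 and 49.0 CPM to 59.4 and 58.3 (log2 fold change 0.25, SE 0.0595, adjusted p = 0.000655). It was at 48.1 and 49.8 with the miR-3124-5p mimic, 54.6 and 53.9 with the miR-92b inhibitor, and 54.5 and 53.1 in mixed, with log2 fold changes of -0.02, 0.13 and 0.12 (adjusted p = 0.827, 0.0827 and 0.105). The direct test of SPRED2 in miR200b_mimic passed against miR3124_mimic (adjusted p = 0.000186) and missed the threshold against miR92b_inhibitor (0.0928) and mixed (0.0761).

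ETV4 (chr17:43527844-43579620, minus strand) was at 16.4 and 16.4 CPM in miRcontrol. It was at 46.4 and 42.5 with the miR-3124-5p mimic, 29.6 and 29.4 with the miR-200b-3p mimic, 27.1 and 30.2 with the miR-92b inhibitor, and 46.6 and 44.3 in mixed. The groups formed 3 levels, with miRcontrol lowest, miR200b_mimic and miR92b_inhibitor overlapping in between, and miR3124_mimic and mixed overlapping at the top. The log2 fold change was 1.44 (SE 0.0821, adjusted p = 5.07e-20) with the miR-3124-5p mimic, 0.85 (SE 0.0882, adjusted p = 3.67e-11) with the miR-200b-3p mimic, 0.81 (SE 0.0867, adjusted p = 2.16e-10) with the inhibitor and 1.47 (SE 0.0806, adjusted p = 1.99e-20) in the mixed group. ETV4 overlaps DHX8 on the opposite strand, which had 1002 to 1366 counts per library. The kit keeps the strand, but the strand setting of the counting is not given in the sources used here, so reads of the 2 genes may not be separated.

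ETV5 (chr3:186046308-186110318, minus strand), of the same family, had another order of groups than ETV4. It was at 85.3 and 81.1 CPM in the control, 128 and 129 with the miR-3124-5p mimic, 77.8 and 77.8 with the miR-200b-3p mimic, 72.8 and 70.6 with the miR-92b inhibitor, and 87.5 and 85.8 in mixed. Only the miR3124_mimic libraries were far above the controls, and those of miR200b_mimic and miR92b_inhibitor were below them. It rose with the miR-3124-5p mimic (log2 fold change 0.63, SE 0.0476, adjusted p = 1.08e-15) and fell with the inhibitor (-0.22, SE 0.0506, adjusted p = 0.000596). With the miR-200b-3p mimic it was -0.10 (95% interval -0.20 to 0.01, adjusted p = 0.127) and in the mixed group 0.06 (95% interval -0.04 to 0.16, adjusted p = 0.368). ETV5 overlaps DGKG on the same strand, which had 2 to 19 counts per library.

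**Figure D2:**
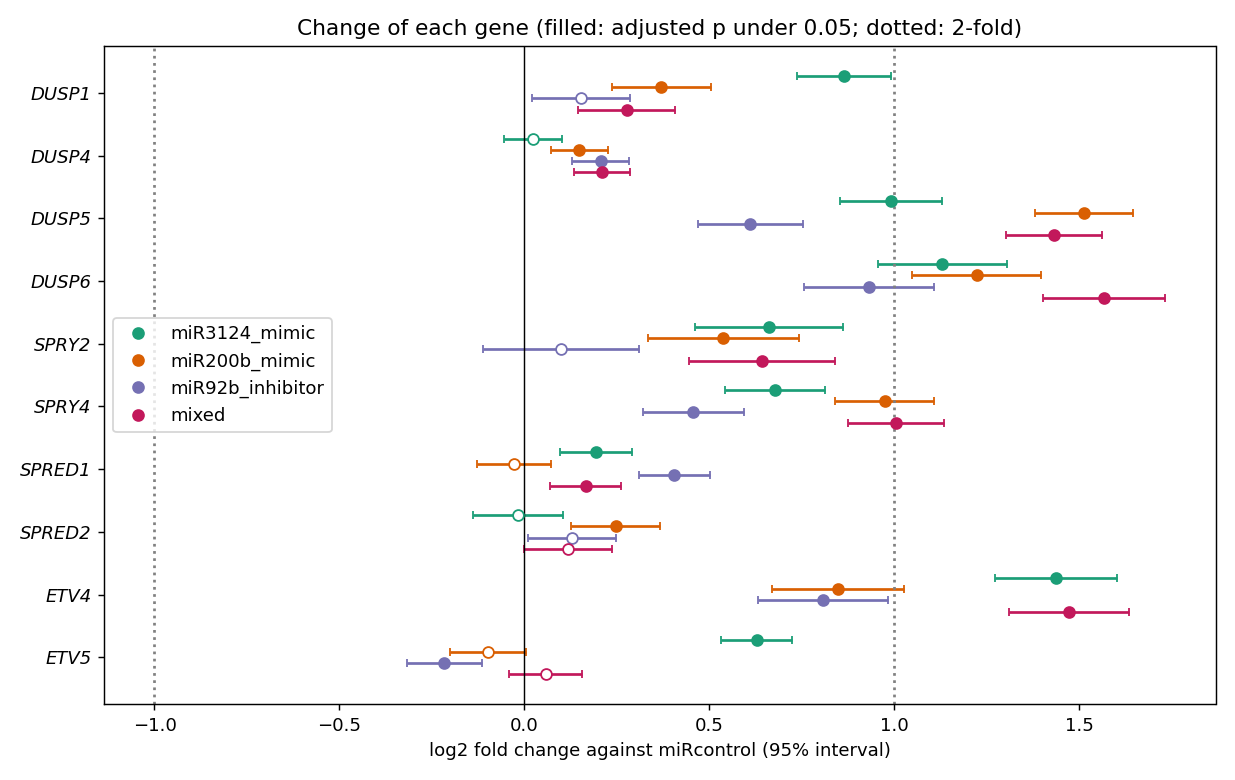
Log2 fold change against miRcontrol (horizontal axis) of the 10 genes, with 95% intervals from the edgeR fit; colours mark the groups, filled points have an adjusted p under 0.05 and dotted lines mark 2-fold. Most points lie to the right of 0, and ETV5 in the miR92b_inhibitor group, at -0.22, is the one filled point to the left.

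Levels of different genes were compared per length, as CPM per kb of exon sequence. In the miRcontrol group DUSP4 was the highest at 41.9 CPM per kb, followed by DUSP1 at 23.3, ETV5 at 14.3, SPRED1 at 12.6, DUSP5 at 10.9 and SPRED2 at 9.62. SPRY2 at 5.38, SPRY4 at 5.32, ETV4 at 4.54 and DUSP6 at 3.56 were the lowest. SPRY2 and SPRY4 differed by less than their spread.

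The single groups were also compared with each other. Between miR3124_mimic and miR200b_mimic, 8 of the 10 genes differed, against 57.8% of all genes tested. DUSP1, SPRED1, ETV4 and ETV5 were higher with the miR-3124-5p mimic, by 0.49, 0.22, 0.59 and 0.73 on the log2 scale, and DUSP4, DUSP5, SPRY4 and SPRED2 were higher with the miR-200b-3p mimic (differences of -0.13, -0.52, -0.30 and -0.26, as miR3124_mimic minus miR200b_mimic). DUSP6 and SPRY2 were not called there, with differences of -0.09 (95% interval -0.25 to 0.06) and 0.12 (95% interval -0.07 to 0.32). The DUSP4 call was lost without miR3124_mimic replicate 2 (adjusted p = 0.0502), and SPRY2 was called without miR200b_mimic replicate 2 (0.34, adjusted p = 0.0111).

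Between miR3124_mimic and miR92b_inhibitor all 10 differed, against 58.8% of all genes. Of these, 7 were higher with the miR-3124-5p mimic, with ETV5 at 0.84 (SE 0.0484), DUSP1 at 0.71 (SE 0.0614) and ETV4 at 0.63 (SE 0.0742) in front, and DUSP4, SPRED1 and SPRED2 were lower (-0.18, -0.21 and -0.15). The calls for DUSP6 (0.20, adjusted p = 0.0255) and SPRED2 (adjusted p = 0.0305) were the weakest. With DESeq2 their adjusted p was 0.0991 and 0.109, and both were lost without miR3124_mimic replicate 1 (0.387 and 0.158) and without either inhibitor library, SPRED2 also without miR3124_mimic replicate 2 (0.0525). For DUSP6 the difference was 0.10 without miR3124_mimic replicate 1 and 0.30 without replicate 2. SPRY4, at 0.22, was lost without miR92b_inhibitor replicate 1 (0.12, adjusted p = 0.185).

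Between miR200b_mimic and miR92b_inhibitor, 6 differed, against 50.5% of all genes. DUSP5 (0.90, SE 0.0609), SPRY4 (0.52, SE 0.0626), SPRY2 (0.44, SE 0.0999), DUSP6 (0.29, SE 0.077) and DUSP1 (0.22, SE 0.0648) were higher with the miR-200b-3p mimic, and SPRED1 was lower (-0.43, SE 0.0479). The calls for SPRY2 (0.22, adjusted p = 0.151) and DUSP1 (0.08, adjusted p = 0.421) were lost without miR200b_mimic replicate 2, and that for DUSP6 without replicate 1 of that group (0.21, adjusted p = 0.055). Without that replicate 1 the DUSP1 difference was 0.33.

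The mixed group was then set against each single group. Against miR3124_mimic, 6 of the 10 genes differed, with 49.1% of all genes. DUSP5 (0.44, SE 0.0585), DUSP6 (0.44, SE 0.0722), SPRY4 (0.33, SE 0.0604) and DUSP4 (0.19, SE 0.038) were higher in the mixed group, and DUSP1 (-0.59, SE 0.0604) and ETV5 (-0.57, SE 0.047) were lower. ETV4 was not called there (0.03, 95% interval -0.11 to 0.17), nor was SPRY2 (-0.02, 95% interval -0.20 to 0.17). SPRED2 (0.14, adjusted p = 0.0544) passed with TMM scaling (adjusted p = 0.0298) and without miR200b_mimic replicate 1 (0.0486) or replicate 2 (0.0494).

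Against miR200b_mimic, 4 differed, with 38.6% of all genes. ETV4 (0.62, SE 0.0742), DUSP6 (0.34, SE 0.0721), SPRED1 (0.20, SE 0.0486) and ETV5 (0.16, SE 0.0504) were higher in the mixed group. DUSP5 (-0.08, 95% interval -0.19 to 0.03) and SPRY4 (0.03, 95% interval -0.09 to 0.15) were not called. The call for ETV5 was lost without miR200b_mimic replicate 2 (adjusted p = 0.0733) or mixed replicate 1 (0.0815), and that for SPRED1 without mixed replicate 2 (0.0545). DUSP1 (-0.09) was called without miR200b_mimic replicate 1 (-0.20, adjusted p = 0.02), and SPRY2 (0.10) without replicate 2 of that group (0.33, adjusted p = 0.0244).

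Against miR92b_inhibitor, 7 differed, with 39.6% of all genes. DUSP5 (0.82, SE 0.06), ETV4 (0.66, SE 0.0727), DUSP6 (0.64, SE 0.0725), SPRY4 (0.55, SE 0.0609), SPRY2 (0.54, SE 0.0963) and ETV5 (0.27, SE 0.0499) were higher in the mixed group, and SPRED1 was lower (-0.24, SE 0.0461). DUSP6 was thus the one member that was higher in the mixed group than in each of the 3 single groups by the test.

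The mixed group was also set against the sum of the 3 single log2 fold changes. This is a description of the fit, since the amount of each agent in the mixed group is not given. The same 2 control libraries enter the mixed value and each single value. For 7 of the 10 genes the mixed value lay below that sum, and 0 lay above it, where 21.7% of all genes departed in either direction. The share of all genes below the sum alone was not computed. The median departure was -0.88 for the members and 0.01 for all genes. At an unadjusted p under 0.05 all 10 lay below the sum with edgeR, and with DESeq2, adjusted, 6 lay below it and 0 above. DUSP6 had a sum of 3.28 and a mixed value of 1.57, a departure of -1.72 (SE 0.172, adjusted p = 6.92e-11). DUSP5 had 3.11 and 1.43 (departure -1.68, SE 0.135, adjusted p = 1.11e-13), and ETV4 had 3.09 and 1.47 (departure -1.62, SE 0.169, adjusted p = 2.24e-10). The mixed value was thus close to the largest single value for DUSP5 (1.51, miR200b_mimic), ETV4 (1.44, miR3124_mimic) and SPRY4 (0.97 against 1.004 in mixed), rather than to the sum.

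DUSP1 had a sum of 1.39 and a mixed value of 0.28 (departure -1.11, SE 0.13, adjusted p = 4.27e-09), below its value with the miR-3124-5p mimic alone. SPRY4 had a departure of -1.10 (SE 0.133, adjusted p = 8.97e-09) and SPRED1 of -0.40 (SE 0.0965, adjusted p = 0.00141). The SPRY2 departure of -0.66 (SE 0.202, adjusted p = 0.0139) missed the threshold with DESeq2 (adjusted p = 0.0737), without miRcontrol replicate 1 (0.131) and without miR200b_mimic replicate 2 (-0.42, adjusted p = 0.142). DUSP4 (-0.17), SPRED2 (-0.24) and ETV5 (-0.26) were not called (adjusted p = 0.118, 0.155 and 0.0587). ETV5 passed with library totals as the only scaling (0.0458) and with the filter of at least 10 counts in every library (0.0428). When the single differences were added in CPM instead, an alternative chosen after seeing the data, the mixed level was still below the sum for all 10 genes, without a test. For DUSP6 it was 48.9 against 73.4 CPM, for DUSP5 76.7 against 124 and for ETV4 45.4 against 69.9.

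**Figure D3:**
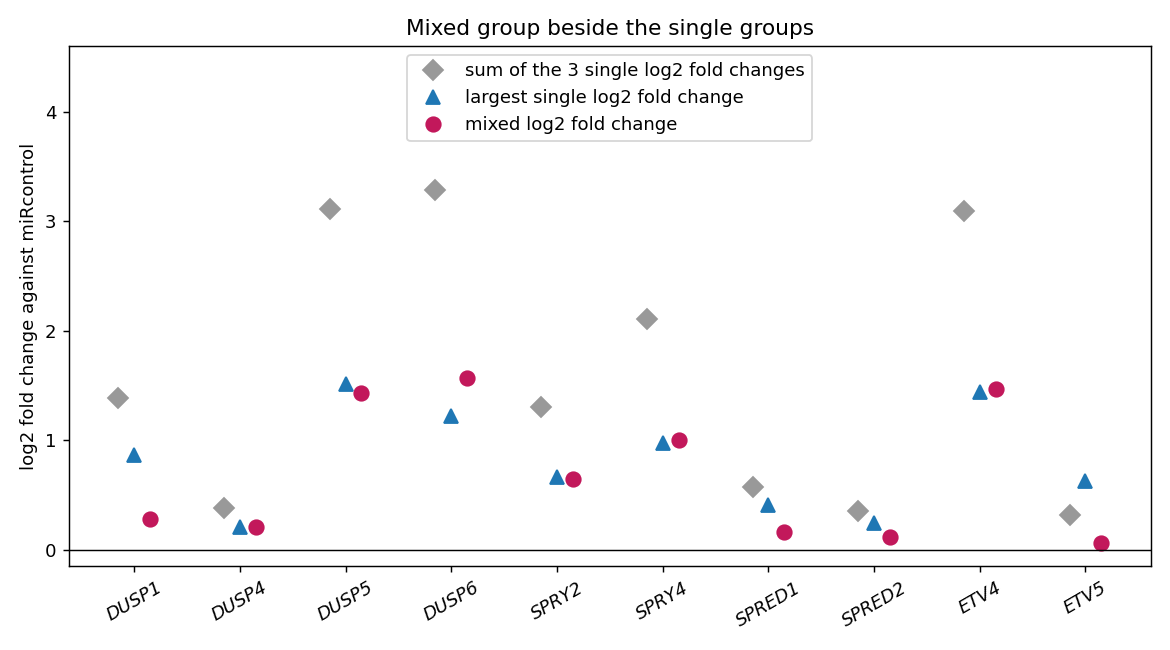
Log2 fold change against miRcontrol (vertical axis) of the 10 genes in the mixed group (circles), the largest of the 3 single values (triangles) and the sum of the 3 single values (diamonds). For DUSP5, SPRY4 and ETV4 the circles lie near the triangles, between 1.004 and 1.47, and below the diamonds, between 2.11 and 3.11, while the DUSP6 circle, at 1.57, lies above its triangle, at 1.22, and below its diamond, at 3.28.

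Among themselves, the members were compared by the root mean square difference of their mean-centred log2 levels over the 5 groups, which is a description with 5 points. DUSP4, SPRED2 and SPRED1 had the narrowest ranges (0.21, 0.27 and 0.43), so the small differences between them reflect little movement in each. Of the pairs among the other members, the most alike were DUSP1 and ETV5 (0.154) and DUSP5 and SPRY4 (0.192). Among the 10418 genes with a mean of at least 5 CPM, the genes most like DUSP6 were HMGA2 (0.123), an architectural chromatin protein of embryonic and cancer cells, and AMPD3 (0.168), an AMP deaminase. HMGA2 was at 114 ± 6.46 CPM in miRcontrol and 374 ± 27.7 in mixed (SD, n = 2), and it was also the nearest to ETV4 (0.150), beside the exonuclease gene ISG20 (0.150). Nearest to DUSP5 were KBTBD8 (0.0996), a ubiquitin ligase adaptor, and FGF1 (0.103), a ligand of the FGF receptors that feed this pathway. KBTBD8 was at 6.42 ± 0.636 CPM in the control and 16.8 ± 0.988 in mixed (SD, n = 2). FGF1 was at 13.6 ± 0.343 CPM in the control, 27.2 ± 0.378 with the miR-3124-5p mimic, 34.0 ± 2.65 with the miR-200b-3p mimic, 17.6 ± 0.0348 with the miR-92b inhibitor and 35.9 ± 0.736 in mixed (SD, n = 2). These genes were picked by likeness from the 10418, and a link between them and the members was not tested.

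Of the other catalytic MAPK phosphatases, 5 of 6 were tested (DUSP7, DUSP8, DUSP9, DUSP10 and DUSP16). In the miR3124_mimic group 0 rose and 2 fell, where 25.7% and 25.3% of all genes did. In the miR200b_mimic group 2 rose and 1 fell, against 21.4% and 19.1%. With the inhibitor 2 rose and 0 fell, against 17.5% and 18.2%. In the mixed group 1 rose and 0 fell, against 21.5% and 21.1%. DUSP10, which acts on p38 and JNK, fell with the miR-3124-5p mimic (-0.54, SE 0.14, adjusted p = 0.00108) and rose with the miR-200b-3p mimic (0.37, SE 0.126, adjusted p = 0.0167) and the inhibitor (0.43, SE 0.122, adjusted p = 0.00422). DUSP7, a cytoplasmic ERK phosphatase, was lower with the miR-3124-5p mimic (-0.19, SE 0.0656, adjusted p = 0.0124). It rose with the miR-200b-3p mimic (0.20), with the inhibitor (0.27, SE 0.0615, adjusted p = 0.000425) and in the mixed group (0.43, SE 0.0604, adjusted p = 8.84e-08). DUSP9, another cytoplasmic ERK phosphatase, fell with the miR-200b-3p mimic (-1.10, SE 0.34, adjusted p = 0.00745). That call rested on few reads, 16 counts in each miR200b_mimic library and 43 and 34 in the control. DUSP8, at 4 to 13 counts per library, and DUSP16, at 3 to 15, were lower still. At an unadjusted p under 0.05 edgeR changed these counts only in the mixed group, where 2 (DUSP9 and DUSP16) were lower. The 2 called with the miR-3124-5p mimic became 1 without miRcontrol replicate 1 or miR3124_mimic replicate 2, and the 3 called with the miR-200b-3p mimic became 1 without miRcontrol replicate 2 or either miR200b_mimic library. The 2 called with the inhibitor became 1 without miRcontrol replicate 2 or miR92b_inhibitor replicate 1, and the 1 called in the mixed group became 2 without mixed replicate 1.

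Of the other Sprouty, Spred and PEA3 genes, 3 of 4 were tested (SPRY1, SPRED3 and ETV1). Of all genes, 25.7% rose and 25.3% fell with the miR-3124-5p mimic, and 21.4% and 19.1% with the miR-200b-3p mimic. These shares were 17.5% and 18.2% with the inhibitor, and 21.5% and 21.1% in mixed. Of the 3, 2 rose and 0 fell with the miR-3124-5p mimic: ETV1, the third PEA3 factor (0.96, SE 0.138, adjusted p = 7.08e-08), and SPRED3 (0.85, SE 0.101, adjusted p = 8.84e-10). With the miR-200b-3p mimic 0 of the 3 passed with edgeR, at an unadjusted p of 0.05 as well, or with DESeq2. With the inhibitor SPRED3 rose (0.35, SE 0.105, adjusted p = 0.00647) and SPRY1 fell (-0.94, SE 0.366, adjusted p = 0.0397), and in the mixed group SPRED3 rose (0.45, SE 0.104, adjusted p = 0.000391). The SPRY1 call rested on 13 and 16 counts with the inhibitor and 27 in each control library. The 2 called with the inhibitor became 0 without miRcontrol replicate 1 or miR92b_inhibitor replicate 2, and 1 without either of the other libraries of these groups or with DESeq2. All 3 PEA3 factors, ETV1, ETV4 and ETV5, thus rose with the miR-3124-5p mimic.

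Of 15 other genes used as ERK output, such as immediate early genes and FOSL1, 14 were tested. In the miR3124_mimic group 4 rose and 8 fell (median -0.28), where 25.7% and 25.3% of all genes did. In the miR200b_mimic group 10 rose and 3 fell (median 0.28), against 21.4% and 19.1%. With the inhibitor 10 rose and 2 fell (median 0.33), against 17.5% and 18.2%, and in the mixed group 10 rose and 2 fell (median 0.37), against 21.5% and 21.1%. In the direct comparison of miR3124_mimic with miR92b_inhibitor, 2 of the 14 were higher and 11 lower, where 58.8% of all genes differed in either direction. The feedback genes and these output genes thus had medians of opposite sign with the miR-3124-5p mimic. FOS, an AP-1 subunit, rose in all 4 groups, from 0.687 and 0.716 CPM in miRcontrol to 4.42 and 4.41 in mixed (log2 fold change 2.64, SE 0.313, adjusted p = 1.16e-09). EGR1, a zinc finger factor of the immediate early response, was at 9.44 and 7.94 CPM in miRcontrol. It was at 35.0 and 47.1 with the inhibitor (2.24, SE 0.115, adjusted p = 1.12e-20) and 45.8 and 47.998 in mixed (2.43, SE 0.113, adjusted p = 3.96e-23). EGR1 also rose with the miR-200b-3p mimic (1.23) and was not called with the miR-3124-5p mimic (-0.23).

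EPHA4, an ephrin receptor, fell with the miR-3124-5p mimic (-1.07, SE 0.243, adjusted p = 0.000218) and the miR-200b-3p mimic (-1.66, SE 0.266, adjusted p = 1.13e-06). It also fell in the mixed group (-1.27) and was not called with the inhibitor (0.03). Named after their values were seen, CCND1, which encodes cyclin D1, and FOSL1, an AP-1 subunit, both fell by 0.92 on the log2 scale with the miR-3124-5p mimic (-0.92 each, SE 0.0345 and 0.045). FOSL1 was at 278 and 261 CPM in the control, 148 and 137 with the miR-3124-5p mimic, and 436 and 447 with the miR-92b inhibitor. DUSP6, ETV4 and SPRY4 were above the control in both of those groups.

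**Figure D4:**
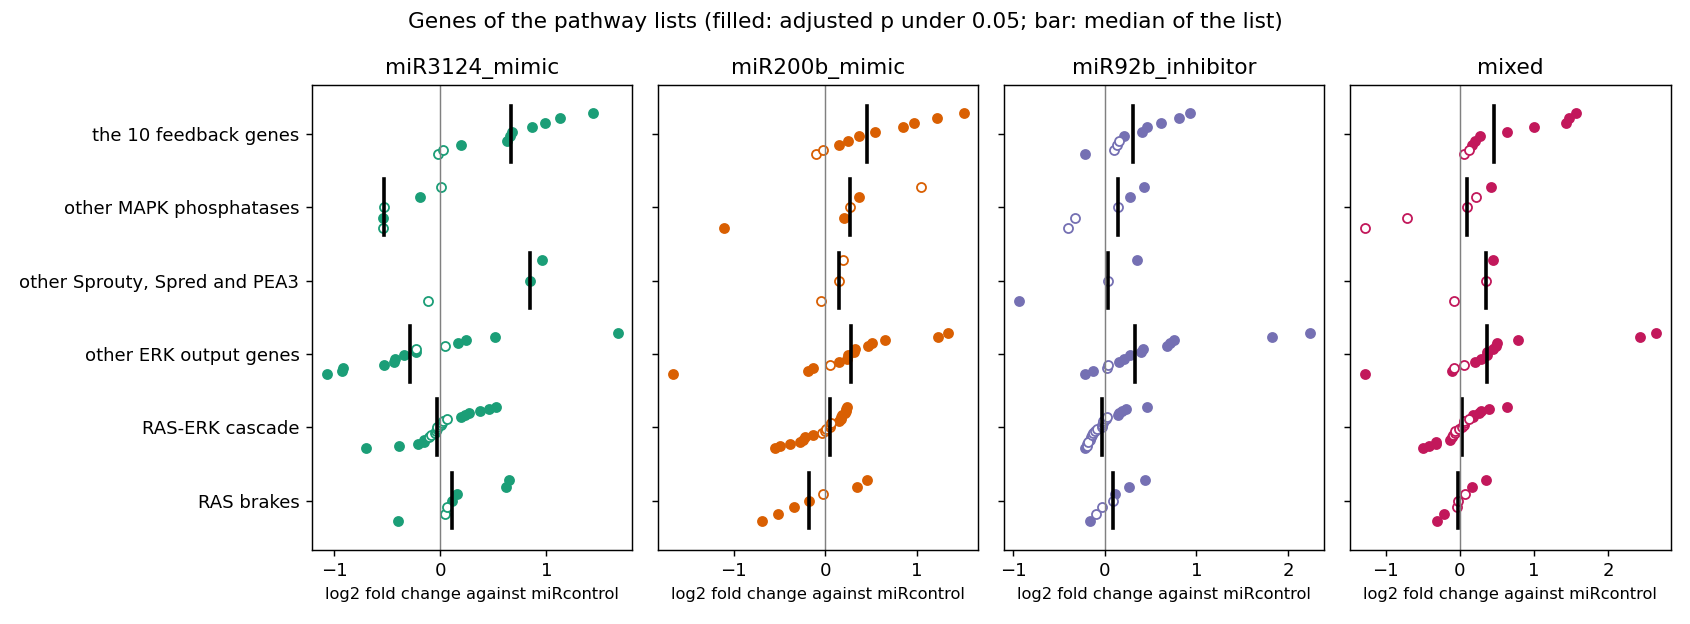
Log2 fold change against miRcontrol (horizontal axis) of the members and of the 5 other pathway lists, with 1 panel per group; filled points have an adjusted p under 0.05 and the black bar is the list's median. With the miR-3124-5p mimic the median of the 10 feedback genes is 0.67 and that of the other ERK output genes -0.28, while both medians are above 0 in the other 3 panels.

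Of the RAS-ERK cascade itself, 21 of 23 genes were tested. With the miR-3124-5p mimic 6 rose and 5 fell, where 25.7% and 25.3% of all genes did. With the miR-200b-3p mimic 8 rose and 7 fell, against 21.4% and 19.1%. With the miR-92b inhibitor 5 rose and 4 fell, against 17.5% and 18.2%. In mixed 6 rose and 6 fell, against 21.5% and 21.1%. The list's medians, -0.03, 0.05, -0.03 and 0.03, were close to those of all genes. The 9 called with the inhibitor became 5 without miRcontrol replicate 1 or miR92b_inhibitor replicate 1. PTPN11, the phosphatase SHP2 that passes receptor signals on to RAS, fell with the miR-3124-5p mimic (-0.70, SE 0.0373, adjusted p = 3.26e-21). It also fell with the miR-200b-3p mimic (-0.49, SE 0.037, adjusted p = 1.42e-15) and in the mixed group (-0.42). MAPK3, which encodes ERK1, fell with the miR-200b-3p mimic (-0.55, SE 0.0688, adjusted p = 4.27e-09) and in the mixed group (-0.50, SE 0.0664, adjusted p = 1.69e-08). The adaptor GAB1 rose with the miR-3124-5p mimic (0.53, SE 0.101, adjusted p = 1.92e-05), and the kinase gene RPS6KA2 rose in the mixed group (0.63, SE 0.0804, adjusted p = 6.34e-09). The ETS factor ELK3 rose with the inhibitor (0.46, SE 0.042, adjusted p = 3.08e-12) and in the mixed group (0.26). NRAS rose in all 4 groups, by 0.20 with the miR-3124-5p mimic, 0.21 with the miR-200b-3p mimic, 0.23 with the inhibitor and 0.39 in mixed.

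Of 8 brakes on RAS and its receptors, 7 were tested. With the miR-3124-5p mimic 4 rose and 1 fell, where 25.7% and 25.3% of all genes did. With the miR-200b-3p mimic 2 rose and 4 fell, against 21.4% and 19.1%. With the miR-92b inhibitor 3 rose and 1 fell, against 17.5% and 18.2%. In mixed 2 rose and 2 fell, against 21.5% and 21.1%. RASA2, a RAS GTPase activating protein, was at 66.1 and 66.2 CPM in the control, 106 and 101 with the miR-3124-5p mimic and 42.5 and 39.6 with the miR-200b-3p mimic. It thus rose with the miR-3124-5p mimic (0.64, SE 0.0529, adjusted p = 1.47e-14) and fell with the miR-200b-3p mimic (-0.69, SE 0.0611, adjusted p = 2.73e-13). RASA2 also rose with the inhibitor (0.43, SE 0.0533, adjusted p = 6.36e-09) and fell in the mixed group (-0.22). DAB2IP, of the same class, went the same 2 ways with the mimics (0.62, SE 0.0915, adjusted p = 1.56e-07, and -0.51, SE 0.105, adjusted p = 8.23e-05). RASA1 rose in all 4 groups, by 0.15 with the miR-3124-5p mimic, 0.45 with the miR-200b-3p mimic, 0.26 with the inhibitor and 0.35 in mixed. The RAF inhibitor PEBP1 fell with the miR-3124-5p mimic (-0.39), with the inhibitor (-0.17) and in the mixed group (-0.30). The 4 brakes called with the inhibitor became 2 without miRcontrol replicate 2 or miR92b_inhibitor replicate 2.

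The promoters were searched because several members moved together. RefSeq windows from 250 bases before to 50 after a listed start were given for 6 of the 10 genes, 3 for SPRY2, 2 for SPRED2 and 1 each for DUSP1, DUSP6, SPRY4 and SPRED1. DUSP4, DUSP5, ETV4 and ETV5 were not matched. Some of these windows lie wholly inside the gene as annotated in GENCODE and do not reach its 5′ end. Their starts lie past that end by 770 bases in DUSP6, 510 in SPRED1 and 2208 in SPRY4. Those of SPRY2 lie 843 and 1292 bases past it, and one of SPRED2 65859 bases. Which start these cells use was not measured. Motifs were read on both strands. The cyclic AMP response element, TGACGTCA, was in 1.85% of 35116 windows and in 1 of the 9 here, that of DUSP1. Its shortened word TGACG, which it contains, was in 24.55% of windows and in 4 of the 9, of DUSP1, SPRY2, SPRY4 and SPRED2. The AP-1 word TGACTCA, which reads TGAGTCA on the other strand, was in 4.95% of windows and in 1 of the 9, the internal one of SPRED2. The ETS core CCGGAAG (10.26% of windows) and the CArG box bound by SRF (1.29%) were in 0 of the 9. The stretch of DUSP1 is shown with the word in capitals, since its start is the 5′ end of the annotated gene.
DUSP1, cyclic AMP response element: gcagggcgggTGACGTCAccgccccgtc
It lies on the minus strand at chr5:172771303-172771330 (GRCh38.p14). DUSP6, which moved most, had none of these words in its window. That window lies inside the annotated gene, so this says only that the letters are not in these bases.

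The cells and the miR-200b-3p mimic were checked with known genes, while no such check was made of the miR-3124-5p mimic or the miR-92b inhibitor. ZEB1 and ZEB2, repressors of the epithelial state that miR-200b-3p is known to target, fell in the miR200b_mimic group (-1.29, SE 0.0676, and -2.27, SE 0.105). They also fell in the mixed group (-1.12 and -1.66). With the miR-3124-5p mimic ZEB2 rose (0.53) and ZEB1 was not called (-0.13), and with the inhibitor both rose (ZEB1 0.20, ZEB2 0.26). The summed level of the 7 epithelial markers listed was 1501 to 1510 CPM in the control, 2023 to 2030 with the miR-3124-5p mimic, 2742 to 2782 with the miR-200b-3p mimic, 1449 to 1504 with the miR-92b inhibitor and 2728 to 2732 in mixed. Nearly all of it came from KRT8 and KRT18, whereas KRT5 and KRT14 had at most 9 counts in any library and CDH1 and EPCAM at most 8 in the control libraries. With the miR-200b-3p mimic CDH1 had 146 to 157 counts and EPCAM 137 to 175, and in mixed they had 36 to 46 and 98 to 103. The 5 fibroblast and mesenchymal markers summed to 7332 to 7355 CPM in the control, 4436 to 4561 with the miR-3124-5p mimic, 4620 to 4675 with the miR-200b-3p mimic, 6838 to 6986 with the miR-92b inhibitor and 4982 to 5001 in mixed. Of all genes, 25.7% rose and 25.3% fell with the miR-3124-5p mimic, and 21.4% and 19.1% with the miR-200b-3p mimic. These shares were 17.5% and 18.2% with the inhibitor, and 21.5% and 21.1% in mixed. Of the 5 epithelial markers tested, 3 rose and 0 fell with the miR-3124-5p mimic, and 5 and 0 with the miR-200b-3p mimic. With the inhibitor 0 of them rose and 1 fell, and in mixed 5 rose and 0 fell. Of the 5 mesenchymal markers, 2 rose and 1 fell with the miR-3124-5p mimic, 1 and 4 with the miR-200b-3p mimic, 1 and 3 with the inhibitor, and 2 and 3 in mixed. With the miR-3124-5p mimic the 1 that fell was VIM, the intermediate filament vimentin (-2.23), while the collagen gene COL1A1 (0.99) and the PDGF receptor gene PDGFRB (1.95) rose. The 5 leukocyte and endothelial markers summed to 26.6 to 27.3 CPM in the control, 26.5 to 27.6 with the miR-3124-5p mimic, 17.3 to 19.8 with the miR-200b-3p mimic, 39.2 to 41.1 with the inhibitor and 23.0 to 24.6 in mixed. Most of this was CD68, which rose with the inhibitor (0.58) and fell with the miR-200b-3p mimic (-0.52) and in mixed (-0.20). The endothelial cadherin gene CDH5 had 59 and 44 counts with the miR-3124-5p mimic and 1 in each control library, and PTPRC and CD3E had 2 counts or fewer. The part of these markers in the changes of the feedback genes was not tested. Since the libraries are bulk RNA, fewer cells that express a gene and less of its RNA per cell cannot be told apart.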

How the data were processed

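BEAS2B cells were transfected, and poly(A)-selected, strand-specific libraries (2 per group, 10 in all) were sequenced with paired-end reads. The authors trimmed the reads, mapped them with TopHat to GRCh38 per the labels, and deposited raw counts per gene, without normalization. The annotation, the counting tool and its strand setting are not given in the sources used here. Each file lists 58173 rows; the 5771 that repeat a symbol were summed.

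Counts were analysed in R 4.3.3 with the quasi-likelihood test of edgeR 4.0.16 (limma 3.58.1), after filterByExpr and RLE scaling, with all groups in one fit and no covariates. RLE stands for the geometric normalization of the study. The common dispersion was 0.000751, and normalization factors were 0.985 to 1.02. p-values were adjusted over 14884 genes (Benjamini-Hochberg). The scripts were tested on simulated data. The members and the gene lists were chosen with earlier results of these data known. The genes named were all members, and in each list the 2 with the largest absolute change per group past the threshold at a mean of at least 1 CPM. To these were added the 2 nearest in pattern to each of the 3 members with the widest range, at a mean of at least 5 CPM, with ZEB1 and ZEB2. Among the listed genes, DUSP2, SPRY3, IER3, HRAS and RPS6KA1 failed the filter. Several symbols with repeated rows, HRAS among them, had almost no counts, so such genes are uncertain. 3′UTRs and gene positions were read from GENCODE v29 (GRCh38), and miRNAs and promoters from RefSeq (GRCh38.p14). Alternatives were TMM, library totals, DESeq2 1.42.0, only the groups compared, other filters, a replicate block, the largest row of a repeated symbol, and leaving out each library. One listed gene and one matched stretch are not reported here.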

Additional observations from a re-analysis of the deposited data

How the results depend on the processing

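With 2 libraries per group, small differences rest on single libraries. The number of members called in each of the 11 comparisons stayed within 1.5 times under all 197 alternative counts. Of 1980 alternative values of single members, 1920 stayed the same, 26 lost a call, 12 gained one, 15 changed sign and 7 moved. A tested value stayed the same if it kept its direction and its side of the threshold. The values also hold the sums in CPM of the 10 genes, which have no test. Such a sum moved if it differed from the departure by more than the SE, and all 7 that moved were of this kind. Replicate numbers did not pair the libraries: over 14884 genes, the differences between same-numbered libraries correlated at -0.0372 to 0.0430 in the 10 pairs of groups. With the replicate block, the numbers of members called against miRcontrol were 8, 8, 7 and 8, as without it. The median of all genes differed by less than 0.04 between scalings.

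With DESeq2, 1 gene in place of 2 was called among the other MAPK phosphatases with the miR-3124-5p mimic, and 1 in place of 2 among the other Sprouty, Spred and PEA3 genes with the inhibitor. With at least 10 counts in every library, 2 in place of 1 of the other MAPK phosphatases were called in the mixed group, among 3 tested. Leaving out a library gave 1 to 2 of the other MAPK phosphatases called with the miR-3124-5p mimic, 1 to 3 with the miR-200b-3p mimic, 1 to 2 with the inhibitor and 1 to 2 in the mixed group. With the inhibitor it gave 0 to 2 of the other Sprouty, Spred and PEA3 genes, 5 to 9 of the RAS-ERK cascade and 2 to 4 of the RAS brakes.

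Signs turned only where the main value was not called. SPRED2 with the miR-3124-5p mimic was 0.00814 with library totals only, and -0.0473 to 0.00372 when a library was left out. When a library was left out, DUSP4 with the miR-3124-5p mimic ranged from -0.00476 to 0.0454, and SPRED1 with the miR-200b-3p mimic from -0.0575 to 0.00275. In mixed against miR3124_mimic, ETV4 ranged from -0.0285 to 0.0977 and SPRED1 from -0.0684 to 0.0196. In mixed against miR200b_mimic, SPRY2 ranged from -0.0662 to 0.33, DUSP1 from -0.20 to 0.0408 and SPRY4 from -0.0204 to 0.0766. In mixed against miR92b_inhibitor, DUSP4 ranged from -0.0390 to 0.0421 and SPRED2 from -0.0313 to 0.00394. In miR3124_mimic against miR200b_mimic, DUSP6 ranged from -0.20 to 0.00560 and SPRY2 from -0.0510 to 0.34, and in miR200b_mimic against miR92b_inhibitor ETV4 ranged from -0.0353 to 0.12. Beyond the libraries left out, the cause was not tested.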

Other observations

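The word for miR-200b-3p, CAGTATT, was also looked for in the 3′UTRs of the 50 tested genes of the other pathway lists, as a description. It was in 19 of them, and in 15.97% of all 3′UTRs searched. With the miR-200b-3p mimic 9 of these 19 fell and 7 rose, and of the 31 without the word 6 fell and 15 rose. Of all genes tested, 19.1% fell and 21.4% rose in that group. Among the genes with the word, EPHA4, PTPN11, RASA2 and DAB2IP fell, and EGR1 and ERRFI1 rose. In the miR3124_mimic group, to which no miR-200b-3p was added, 8 of the 19 fell and 7 rose, and of the 31 others 8 fell and 9 rose. In the miR92b_inhibitor group, to which no miR-200b-3p was added, 4 of the 19 fell and 7 rose, and of the 31 others 4 fell and 14 rose. In the mixed group 5 of the 19 fell and 7 rose, and of the 31 others 5 fell and 13 rose. The shares of all genes that fell and rose were 25.3% and 25.7% in the miR3124_mimic group and 18.2% and 17.5% in the miR92b_inhibitor group. They were 21.1% and 21.5% in the mixed group. The shares among all genes with the word were not computed, and 3′UTR lengths were not matched. The lists hold few genes, and some of them lie in the same pathway as the members, so these counts are given without a test.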
